A study of Mus musculus with 12 samples.

Results

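Noncoding small nucleolar RNA (snoRNA) host genes were followed across satellite cells, the Pax7-expressing stem cells of skeletal muscle. The cells came from mice with or without induced deletion of the gene for the chemokine receptor Cxcr4. The 8 genes are Gas5, Zfas1, Snhg1, Snhg3, Snhg6, Snhg8, Snhg12 and Snhg15, taken by name, and each had 1 row among the 55401 genes of the count table. RNA was sequenced from 12 libraries in 4 groups: 4 WT quiescent, 4 KO quiescent, 2 WT activated and 2 KO activated. WT mice were Cxcr4 FL/FL with the Pax7-ZsGreen reporter and no cre. KO mice carried the same alleles and Pax7-creERT2, which places the tamoxifen-inducible recombinase under Pax7. All mice, WT included, received tamoxifen at 80 mg/kg by intraperitoneal injection on 5 days. Quiescent cells were used straight after the sort from hind limb muscle, and activated cells were cultured overnight first. The labels do not say whether the libraries of a group came from separate animals, so the p-values measure the spread between these libraries.

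A snoRNA host gene is transcribed and spliced, and snoRNAs are cut out of its introns. Box C/D snoRNAs guide 2'-O-methylation of ribosomal RNA, and box H/ACA snoRNAs guide the conversion of uridine to pseudouridine. Host RNAs of this class are known for starting with a terminal oligopyrimidine (TOP) run, a C followed by pyrimidines that ties translation to growth signals, and several, Gas5 among them, are degraded by nonsense-mediated decay when they are translated.

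The genes lie on 6 chromosomes of GRCm38, and 31 snoRNA genes are annotated inside them on the same strand in GENCODE M21. Gas5 (ENSMUSG00000053332, chr1:161034422-161038539, + strand) holds 10 of them, Snhg1 (ENSMUSG00000108414, chr19:8723475-8726443, +) holds 8, Snhg12 (ENSMUSG00000086290, chr4:132308623-132311024, +) holds 5 and Zfas1 (ENSMUSG00000074578, chr2:167062934-167065862, +) holds 3. Snhg3 (ENSMUSG00000085241, chr4:132348014-132353686, -) holds 2. Snhg6 (ENSMUSG00000098234, chr1:9941959-9944118, -), Snhg8 (ENSMUSG00000104960, chr3:123507552-123508404, -) and Snhg15 (ENSMUSG00000085156, chr11:6525591-6528760, -) hold 1 each. Among the 31 snoRNA sequences, 17 had the box C letters TGATGA in the first 19 bases and the box D letters CTGA in the last 14 bases, on the transcribed strand, as did 20.04% of all 1507 snoRNA genes of the annotation. The 5 snoRNAs printed here were chosen because they mark the cargo of the hosts described most fully: a Gas5 snoRNA, 2 of the 3 in Zfas1, the snoRNA of Snhg6, and the H/ACA snoRNA of Snhg8. Capitals mark box C and box D, or the ACA near the 3′ end of Snora24. The coordinates are chr1:161038082-161038158 (+) for Snord47, chr2:167064998-167065086 (+) for Gm23201, chr2:167065276-167065365 (+) for Snord12, chr1:9942463-9942549 (-) for Snord87 and chr3:123507937-123508066 (-) for Snora24.
Snord47: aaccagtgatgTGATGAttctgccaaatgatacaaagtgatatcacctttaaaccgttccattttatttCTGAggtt
Gm23201: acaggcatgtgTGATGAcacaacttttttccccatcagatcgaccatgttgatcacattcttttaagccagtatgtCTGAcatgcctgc
Snord12: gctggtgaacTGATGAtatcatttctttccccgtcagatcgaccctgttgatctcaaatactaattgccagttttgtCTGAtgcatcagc
Snord87: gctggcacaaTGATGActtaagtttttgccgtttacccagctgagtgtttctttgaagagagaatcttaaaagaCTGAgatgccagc
Snora24: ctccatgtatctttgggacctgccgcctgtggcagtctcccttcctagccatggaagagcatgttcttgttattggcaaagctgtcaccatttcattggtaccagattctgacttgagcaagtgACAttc

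RefSeq (GRCm38.p6) gave 8 start sites for 7 of the genes and none for Snhg6. On the transcribed strand, a C followed by at least 4 bases that are each C or T began at the first transcribed base of Snhg8 and of the second Gas5 start, that is at 2 of 8 starts. The same was true of 2.51% of all 32851 promoters and of 17.3% of the 75 ribosomal protein promoters. A run within 20 bases of the start was present at 4 of 8 starts, against 45.9% of all promoters. The windows below hold 30 bases before and 30 from the start, and are shown because they span the cases found: a run at the start (Gas5 and Snhg8), beside it (Snhg12) or none (Zfas1). Capitals mark the run, which begins 1 base upstream of the start in Snhg12 and was not found in Zfas1 within 20 bases of its start. The windows are chr1:161035136-161035195 (+), chr3:123508307-123508366 (-), chr4:132308648-132308707 (+) and chr2:167062904-167062963 (+), in that order.
Gas5 second start: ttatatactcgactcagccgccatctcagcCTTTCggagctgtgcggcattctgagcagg
Snhg8: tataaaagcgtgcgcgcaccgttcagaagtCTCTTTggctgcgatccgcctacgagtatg
Snhg12: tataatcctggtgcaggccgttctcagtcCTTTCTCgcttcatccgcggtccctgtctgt
Zfas1: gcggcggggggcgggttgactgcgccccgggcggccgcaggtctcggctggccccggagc

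Quiescent libraries held 12775593 to 23717013 counts and activated libraries 3172164 to 5427280. The ribosomal RNA gene CT010467.1 took 11.5% to 40.3% of counts in activated libraries and at most 0.807% in quiescent ones. Xist reached 451 to 817 CPM (counts scaled to a common library total) in activated and 1.20 to 7.17 CPM in quiescent libraries, so state, sex of the donors, depth and ribosomal RNA share cannot be told apart in any comparison of states. The summed CPM of 6 muscle fibre markers was 236 to 839 in quiescent and 6026 to 14909 in activated libraries, and the sum over 9 satellite cell markers was 5143 to 8551 and 2316 to 3524. All 6 fibre markers were called higher in activated libraries of both genotypes. The part of these shifts in the results was not tested, and in such bulk samples fewer cells of a type and less RNA per cell cannot be told apart.

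Of the genes, 7 were well measured, with at least 111 counts in each library, and Snhg3 was barely detected. Values are CPM after TMM scaling, a library scaling by edgeR that assumes most genes are alike. Gas5, whose RNA is known as a marker of growth arrest, had the highest CPM in quiescent cells. It stood at 204, 200, 287 and 266 CPM in the WT libraries 1 to 4 and at 209, 208, 208 and 276 CPM in the KO libraries. In activated cells Gas5 stood at 118 and 124 CPM in WT and at 127 and 157 CPM in KO libraries. Every activated library was below every quiescent library.

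**Figure D1:**
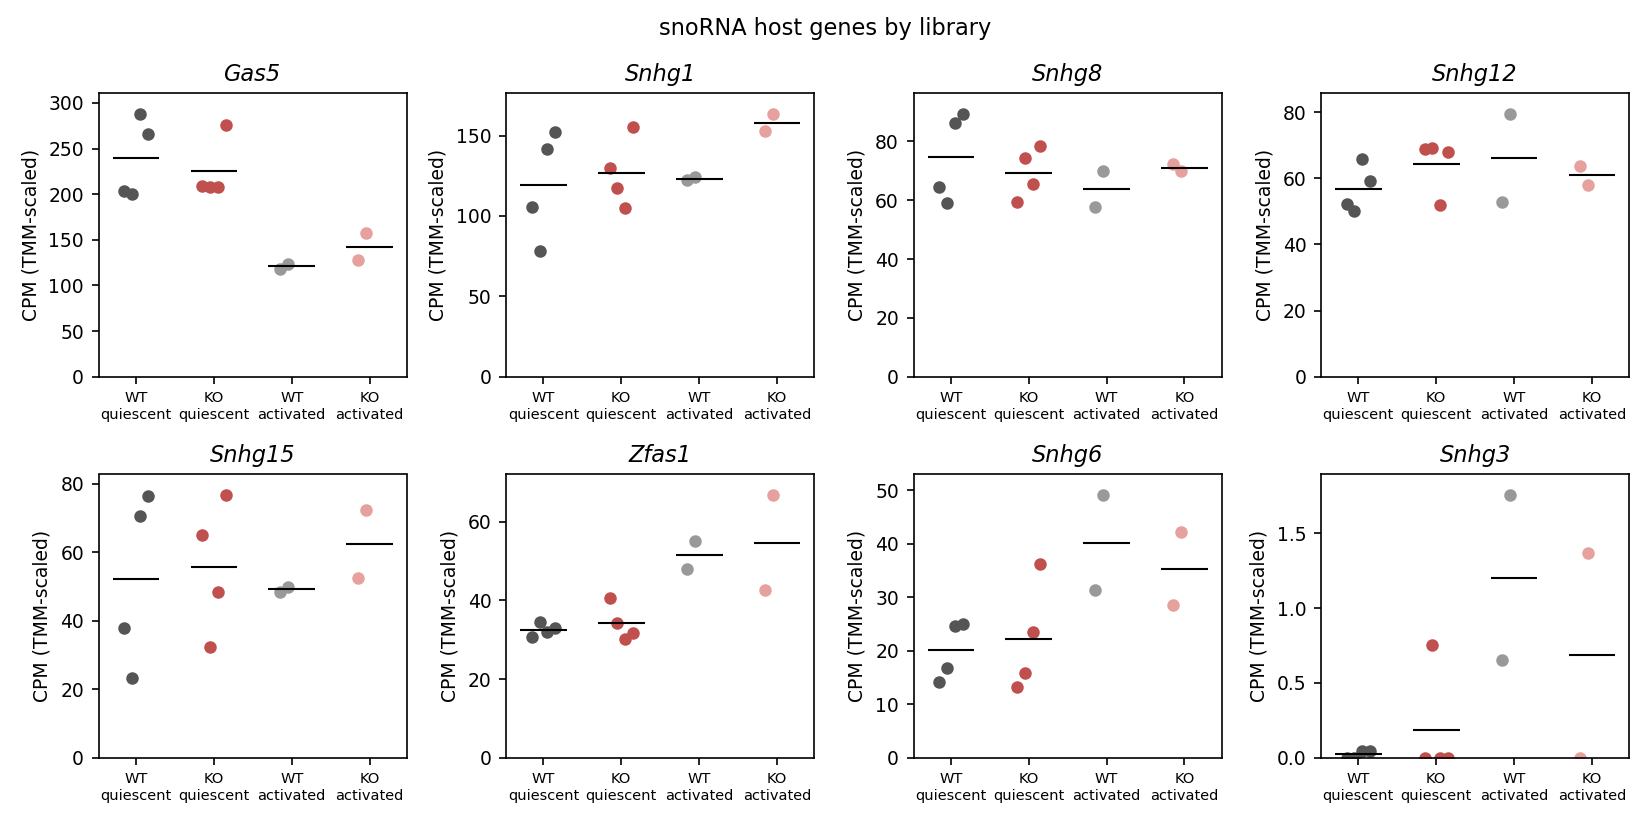
CPM after TMM scaling (vertical axes, each from 0) of the 8 noncoding snoRNA host genes in each library, with 1 point per library and a line at the group mean. Gas5 lies at 118 to 157 CPM in the 4 activated libraries and at 200 to 287 CPM in the 8 quiescent ones, and Zfas1 lies at 42.6 to 66.6 against 30.2 to 40.5 CPM.

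Zfas1, which shares a start region with the antisense gene Znfx1, went the other way. It stood at 30.7, 34.6, 32.1 and 32.8 CPM in WT quiescent and at 40.5, 34.3, 30.2 and 31.6 CPM in KO quiescent libraries. The activated libraries gave 47.9 and 55.2 CPM in WT and 42.6 and 66.6 CPM in KO. All 4 activated values exceeded all 8 quiescent ones, although the lowest activated and the highest quiescent value, both from KO, were close. Snhg6 stood at 14.2, 16.8, 24.6 and 25.1 CPM in WT quiescent libraries and at 31.4 and 49.0 CPM in WT activated ones. In KO it gave 13.3, 15.9, 23.4 and 36.3 CPM before and 28.5 and 42.2 CPM after culture, so the KO groups overlapped.

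The other well measured genes overlapped between all groups of the same genotype. Snhg1 averaged 120 ± 34.0 (SD, n = 4) CPM in WT quiescent, 127 ± 21.3 (n = 4) in KO quiescent, 123 ± 1.53 (n = 2) in WT activated and 158 ± 7.46 (n = 2) in KO activated libraries. Snhg8 averaged 74.8 ± 15.2, 69.4 ± 8.62, 63.9 ± 8.65 and 71.1 ± 1.86 CPM in the same order. Snhg12 averaged 56.8 ± 7.14, 64.4 ± 8.38, 66.1 ± 18.6 and 60.8 ± 4.07 CPM. The means of Snhg8 and of Snhg12 moved by less than the SD of their widest group, whereas the Snhg1 means ranged over more than that, with the highest in KO activated libraries. Snhg15 averaged 52.1 ± 25.6, 55.6 ± 19.4, 49.2 ± 0.989 and 62.5 ± 13.9 CPM, the widest relative spread among the well measured genes in WT quiescent cells, with 23.4 CPM in library 2 and 76.5 CPM in library 4.

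Snhg3, the host of the snoRNAs Snora73a and Snora73b, had 0, 0, 1 and 1 counts in WT quiescent and 0, 11, 0 and 0 counts in KO quiescent libraries. It had 4 and 4 counts in WT activated and 0 and 6 counts in KO activated libraries. With 3 counts worth up to 0.213 CPM in quiescent and 1.31 CPM in activated libraries, differences in Snhg3 were not detectable at this depth and no fold change is given. Its annotated span lies largely inside Rcc1, which encodes a chromatin-bound exchange factor for Ran, on the same strand over 5592 bases, with 135 bases of shared exon, and how reads in the overlap were assigned is not given in the sources used here.

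Levels were compared between genes as CPM per kilobase of merged exon. In WT quiescent cells Snhg8 was highest at 87.7 ± 17.8 (SD, n = 4), followed by Gas5 at 63.7 ± 11.7, Snhg1 at 40.3 ± 11.5, Snhg15 at 38.4 ± 18.9, Snhg12 at 23.6 ± 2.97, Snhg6 at 17.6 ± 4.80 and Zfas1 at 11.1 ± 0.543. The SD ranges of Snhg8 and Gas5 overlapped, as did those of Snhg12 and Snhg6, and the wide range of Snhg15 overlapped those of Gas5, Snhg1, Snhg12 and Snhg6. In WT activated cells Gas5 stood at 32.1 ± 1.15 (n = 2) per kilobase, below Snhg1 at 41.5 ± 0.514. The order depends on the gene model, and the exon lengths are of another GENCODE release than the one the study's methods name for the counts. Merged exons covered the whole span of Zfas1, Snhg1, Snhg8 and Snhg12 as 1 block, but formed 3 blocks in Gas5 and Snhg6 and 4 in Snhg15. The FPKM deposited by the authors, 1 mean per group, were 1.497 times the CPM per kilobase for Zfas1 and 0.496 times for Snhg15 in WT quiescent cells, against 0.971 times for Gas5, and placed Snhg12 before Snhg15.

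The first question was whether the induced deletion of Cxcr4 altered the host genes. It did so detectably for none of them. In simulated counts, a log2 fold change of 0.5 between KO and WT was recovered in 0% of changed genes in either state. A change of 1 was recovered in 28.4% in quiescent and 1.49% in activated cells, and a change of 2 in 98.5% and 42.4%. Changes of 0.5 or 1 could thus be missed in either state, and changes of 2 in activated cells. In quiescent cells 0 of 8 genes passed an adjusted p-value under 0.05 in edgeR's quasi-likelihood test, where 0.0155% of all 25771 genes tested did, and 0 of 8 passed at an unadjusted p under 0.05 (all genes 1.74%). DESeq2 also called 0 of 8. Cxcr4 itself was at 59.1 to 112 CPM in WT and 12.5 to 21.2 CPM in KO quiescent libraries, a log2 fold change of -2.24 (SE 0.31, adjusted p = 0.00477, edgeR). Per the paper, the receptor protein on satellite cells fell more modestly than its mRNA right after the tamoxifen course. How much protein the KO cells kept was not measured in these data. The log2 fold changes of the 7 well measured genes lay between -0.11 for Snhg8 and 0.18 for Snhg12. For Gas5 the value was -0.09 with an interval of 1.96 SE on each side from -0.48 to 0.30, and for Zfas1 it was 0.07 with an interval from -0.33 to 0.46. The intervals were widest for Snhg6 (-0.45 to 0.73) and Snhg15 (-0.53 to 0.71).

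In activated cells 0 of 8 genes were called between KO and WT, against 0.0504% of all genes, and 0 of 8 had an unadjusted p under 0.05 (all genes 8.37%). DESeq2 called 0 of 8 there as well. Snhg1 stood at 122 and 124 CPM in WT and at 153 and 163 CPM in KO, a log2 fold change of 0.36 with an interval from -0.26 to 0.97 (adjusted p = 0.865, edgeR). Gas5, Snhg1 and Snhg15 did not overlap between the genotypes and were higher in KO. With 2 libraries a group, 24.7% of all genes did not overlap. Cxcr4 was at 33.3 and 14.4 CPM in WT and at 5.39 and 13.7 CPM in KO activated libraries, a log2 fold change of -1.35 (SE 0.46, adjusted p = 0.381, edgeR). The difference of the KO effect between the states was called for 0 of 8 host genes and for 0% of all genes by edgeR. At an unadjusted p under 0.05 it passed for 0 of 8 host genes and 6.59% of all genes, and DESeq2 called 0 of 8.

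**Figure D2:**
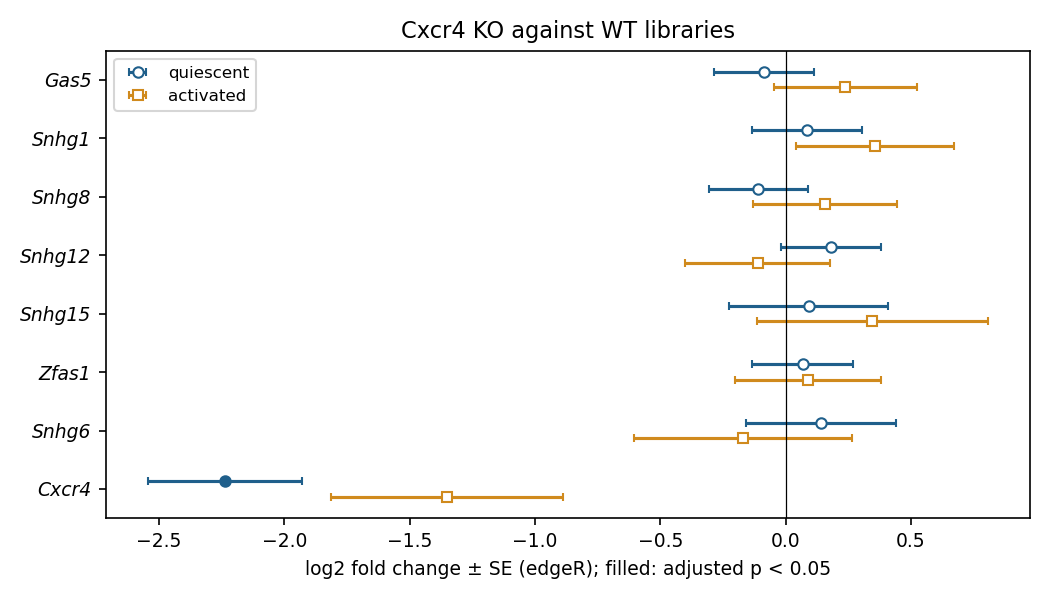
Log2 fold change of KO against WT libraries (horizontal axis, edgeR) with its SE for the 7 well measured host genes and Cxcr4, in quiescent (circles) and activated (squares) libraries, filled where the adjusted p is under 0.05. The host genes lie between -0.17 and 0.36 and none is filled, while Cxcr4 lies at -2.24 (filled) and -1.35.

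The second question was how the host genes differed between freshly sorted and overnight-cultured cells. They did not move as a group. In WT, 2 of 8 genes were called, where 29.8% of all genes were (11.5% higher, 18.3% lower). In KO, 2 of 8 genes were called, where 33.7% of all genes were (13.3% higher, 20.4% lower). Under a stricter rule that also asked for a log2 fold change beyond 1 and a mean count over 10, 0 of 8 genes were called in either genotype, against 26.4% of all genes in WT and 29.7% in KO. Activated and quiescent libraries did not overlap for 4 of 8 genes in WT (Gas5 lower, and Zfas1, Snhg6 and the barely detected Snhg3 higher), as for 56.0% of all genes, and for 2 of 8 in KO (Gas5 and Zfas1), as for 54.4%. The median over all genes tested was -0.92 in WT and -0.96 in KO on the log2 scale, so a gene with no change in TMM-scaled CPM lay above most other genes.

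Gas5 fell in both genotypes. Its log2 fold change was -0.99 (SE 0.26, adjusted p = 0.00663, edgeR) in WT and -0.66 (SE 0.25, adjusted p = 0.0491) in KO, close to the median of all genes tested. That median depended on the filter for low counts. With a mean count of at least 10 it was -0.46 in WT and -0.49 in KO, nearer to no change than Gas5 was. Zfas1 had a log2 fold change of 0.66 (SE 0.25, adjusted p = 0.0501) in WT, just outside the threshold, and rose in KO by 0.68 (SE 0.24, adjusted p = 0.0386). Snhg6 rose in WT by 0.98 (SE 0.37, adjusted p = 0.0489) and had a value of 0.67 (SE 0.37, adjusted p = 0.158) in KO. The Zfas1 and Snhg6 values lay at the 79.2 and 84.1 percentiles of all genes in WT. Snhg1, Snhg8, Snhg12 and Snhg15 had values between -0.23 and 0.32 in the 2 genotypes and were not called. The median of the 8 host genes was 0.13 in WT and 0.24 in KO.

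These calls are close to the threshold. Without WT activated library 1 or 2 the adjusted p of Gas5 in WT became 0.109 or 0.0741, and the WT call of Snhg6 was lost without quiescent library 1 (0.103) or 2 (0.0861) or activated library 2 (0.343). In KO the Gas5 call was lost without any 1 library (adjusted p from 0.0524 to 0.383) and the Zfas1 call without quiescent library 3 (0.0802) or 4 (0.0572) or activated library 2 (0.517). Without that activated library the KO value of Zfas1 was 0.34, and without activated library 1 it was 0.97. The WT value of Snhg6 ranged from 0.69 without activated library 2 to 1.36 without activated library 1. In KO the Snhg6 value was 0.37 without activated library 2, and 1.02 (adjusted p = 0.0252, edgeR) without quiescent library 4. The Gas5 values stayed between -1.04 and -0.87 in WT and between -0.81 and -0.52 in KO.

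**Figure D3:**
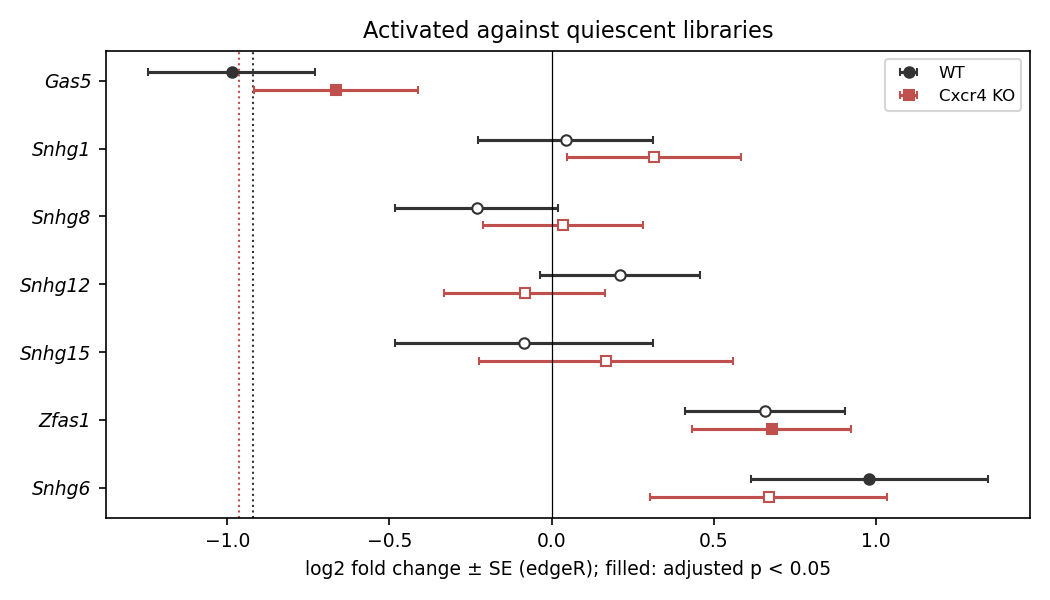
Log2 fold change of activated against quiescent libraries (horizontal axis, edgeR) with its SE for the 7 well measured host genes in WT (circles) and KO (squares), filled where the adjusted p is under 0.05, with dotted lines at the median of all genes tested. Gas5 lies at -0.99 and -0.66 near the medians of -0.92 and -0.96, and the other 6 genes lie between -0.23 and 0.98. With a mean count of at least 10 the medians were -0.46 and -0.49.

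The balance among the host genes was also read within each library, as the log2 ratio of 2 genes' counts, which no scaling factor alters. This measure was added after the fold changes had been seen. All 21 pairs of the 7 well measured genes were compared between states by an exact two-sided permutation test within genotypes (225 arrangements, smallest possible p 0.00444), with Benjamini-Hochberg adjustment over the 21 pairs, and 9 pairs passed. Ratios between genes moved widely across the whole table. At an unadjusted p under 0.05, 12 of the 21 pairs passed, against 76.0% of all 4988061 pairs of the 3159 genes with at least 111 counts in every library. Gas5 fell against each of the other 6 genes, and every activated library lay below every quiescent library in each of these pairs. The same complete separation with Gas5 lower was found against 63.5% of the other 3158 genes, and with Gas5 higher against 6.33%, so the 6 pairs describe these genes and do not set Gas5 apart. Over all 21 host gene pairs 6 did not overlap, against 58.1% of all pairs. The log2 ratio of Gas5 to Snhg1 averaged 1.03 ± 0.235 (SD, n = 4) in WT quiescent, 0.83 ± 0.121 (n = 4) in KO quiescent, -0.03 ± 0.034 (n = 2) in WT activated and -0.16 ± 0.148 (n = 2) in KO activated libraries (difference -1.03, exact permutation adjusted p = 0.0156). Against Zfas1 the ratio fell by 1.47 and against Snhg6 by 1.69 (both exact permutation adjusted p = 0.0156). The 6 pairs share Gas5 and are not independent. Zfas1 rose against Snhg8 by 0.74 (exact permutation adjusted p = 0.0207) and against Snhg12 by 0.59 (0.0156), and Snhg6 rose against Snhg8 by 0.96 (0.0207). None of the 6 pairs among Snhg1, Snhg8, Snhg12 and Snhg15 passed.

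**Figure D4:**
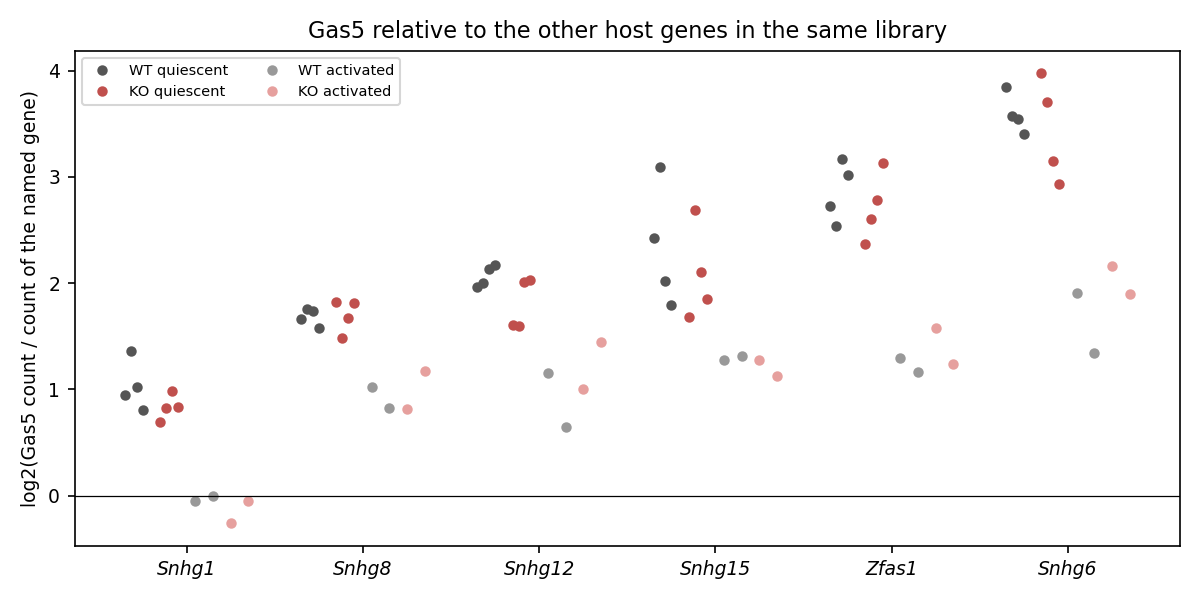
Log2 ratio of the Gas5 count to the count of each of the other 6 well measured host genes (vertical axis), with 1 point per library in the 4 groups. The 4 activated libraries lie below all 8 quiescent libraries for each gene, with a mean difference from -0.73 (Snhg8) to -1.69 (Snhg6).

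Gas5 made up 40.5% ± 2.22 (SD, n = 4) of the summed counts of the 8 genes in WT quiescent and 37.7% ± 1.44 (n = 4) in KO quiescent libraries, against 23.5% ± 1.55 (n = 2) and 24.3% ± 0.960 (n = 2) in activated libraries. Zfas1 went from 5.68% ± 1.38 to 9.98% ± 0.015 in WT and from 5.79% ± 1.07 to 9.23% ± 1.88 in KO. The summed CPM of the 8 genes differed little between groups: it was 462 to 709 in WT quiescent, 533 to 722 in KO quiescent, 479 to 553 in WT activated and 540 to 631 in KO activated libraries.

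The quiescent libraries differed among themselves as well. The summed CPM of 6 fibroadipogenic progenitor markers ranged from 286 to 2966 across them. For 6 endothelial markers it was 197 to 858 CPM, and for 6 blood cell markers 76.9 to 354 CPM. The part of these differences in the host gene values was not tested. WT libraries 3 and 4 and KO library 4 had the highest values of Gas5, Snhg1, Snhg6, Snhg8 and Snhg15 among the 8 quiescent libraries, and they also had the lowest TMM factors of these (0.894 to 0.991). Zfas1 did not share this pattern, at 32.1, 32.8 and 31.6 CPM in those libraries, nor did Snhg12, at 65.7, 59.2 and 67.9 CPM. Across deviations of log2 CPM from the group means in the 8 quiescent libraries, Pearson's r was 0.92 between Snhg1 and Snhg15, 0.87 between Gas5 and Snhg1 and -0.58 between Zfas1 and Snhg6. These points share library depth and scaling, and the values are a description. Among the 8986 genes with an average log2 CPM over 3, the mean standardised profile of the 8 host genes over 12 libraries was most like Cops8 (r = 0.94), Cog2 (0.89), Pcnp (0.89), Ttc14 (0.88) and Fam133b (0.88). By deviations from the group means it was most like Neat1, a nuclear noncoding RNA of paraspeckles (r = 0.96), then Serping1 (0.96), Polr3d (0.94), Kif5a (0.94) and Fam133b (0.93). The barely detected Snhg3 entered both profiles with the same weight as each other host gene.

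Of the 31 snoRNA genes inside the hosts, 29 had 0 counts in all 12 libraries, as had 52.2% of all snoRNA genes in the table. Of these 29, 28 overlap an exon of the host model, and how reads shared by 2 genes were assigned is not given in the sources used here. The model merges the exons of all annotated transcripts and forms 1 block over the whole span of Zfas1, Snhg1, Snhg8 and Snhg12. Overlap with it thus does not place a snoRNA outside the introns. Gm23201, inside Zfas1, had 6, 29, 57 and 29 counts in WT quiescent and 24, 1, 37 and 33 counts in KO quiescent libraries. It had 25 and 14 counts in WT activated and 26 and 32 counts in KO activated libraries, despite their lower depth. Its log2 fold change between states was 1.68 (SE 0.79, adjusted p = 0.112, edgeR) in WT and 2.63 (SE 0.76, adjusted p = 0.0121) in KO, in the direction of its host. Snord87, inside Snhg6, had 0 to 42 counts a library and was not called (0.67, SE 1.14, in WT and 0.21, SE 1.11, in KO). Gm23201 lies within the single block of the Zfas1 model, and reads from the 2 genes cannot be told apart there.

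Several hosts share sequence or a start region with a protein-coding gene. Zfas1 and Znfx1, an antiviral helicase gene, overlap by 82 exonic bases on opposite strands, and use of strand in counting is not given in the sources used here. Znfx1 fell from 70.8 to 105 CPM in WT quiescent libraries to 46.9 and 32.0 CPM in WT activated ones, by 1.15 on the log2 scale (SE 0.32, adjusted p = 0.0109, edgeR), and by 1.47 (SE 0.33, adjusted p = 0.00169) in KO. Zfas1 and Znfx1 thus had fold changes of opposite sign in both genotypes. Zfas1 also shares 189 exonic bases with Gm27494, annotated as misc_RNA, on the same strand. Snhg6 and the protein-coding gene Mcmdc2 overlap by 127 exonic bases on opposite strands. How reads in these overlaps were assigned is not given in the sources used here. Slc3a2, an amino acid transporter subunit that starts 106 bases from Snhg1 on the other strand, had values of -0.46 (SE 0.34, adjusted p = 0.296) in WT and -0.74 (SE 0.34, adjusted p = 0.101) in KO. Rcc1, which overlaps Snhg3, rose by 2.14 (SE 0.25, adjusted p = 2.78e-06) in WT and 1.29 (SE 0.25, adjusted p = 0.00053) in KO. Zbtb37, which overlaps Gas5 by 428 bases on the other strand with 0 exonic bases shared, was not called in either genotype. Gm17300, antisense to Snhg3, rose by 1.89 (SE 0.49, adjusted p = 0.00653) in WT and 2.35 (SE 0.47, adjusted p = 0.000735) in KO.

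The host genes were set beside the proteins that build snoRNAs into particles. Over all genes tested, 11.5% were higher and 18.3% lower in WT activated libraries, and 13.3% and 20.4% in KO. Of 8 snoRNP core proteins 3 were higher and 1 lower in WT activated libraries: Dkc1, the pseudouridine synthase, by 3.01 (SE 0.23, adjusted p = 3.43e-08, edgeR), Nhp2 by 2.72 (SE 0.33), Nop10 by 1.48 (SE 0.26), and Nop58, a box C/D protein, which fell by 0.98 (SE 0.25, adjusted p = 0.00614). Of 11 assembly factors 7 were higher and 0 lower, among them Shq1 (2.49, SE 0.36), Znhit6 (2.39, SE 0.39) and Tcof1 (2.02, SE 0.24). Of 24 ribosome biogenesis genes 16 were higher and 0 lower, with Bop1 (2.49, SE 0.26), Polr1b (2.43, SE 0.32) and Nop16 (1.86, SE 0.31) highest. Their medians were 0.78, 1.40 and 1.13, against 0.13 for the 8 host genes, Snhg3 included, and -0.92 for all genes. In KO the counts were 4 higher and 1 lower of 8, 5 and 0 of 11, and 16 and 0 of 24. The 16 biogenesis genes in KO became 10 without KO activated library 1, the 3 core proteins higher in WT became 5 without WT quiescent library 4, and the core protein lower in each genotype was lost without either activated library. In KO 1 assembly factor was lower without quiescent library 1 or 4.

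Among protein-coding hosts, ribosomal protein genes were mixed, with 3 higher and 7 lower of 21 in WT and 3 higher and 4 lower of 21 in KO. Of all genes tested, 11.5% were higher and 18.3% lower in WT, and 13.3% and 20.4% in KO. Several counts of the lists in this paragraph lay near those shares. Rps2 (1.76, SE 0.26), Rpl13a (1.34, SE 0.24) and Rpsa (0.86, SE 0.25) were higher in WT, and Rpl23a (-1.47, SE 0.54), Rpl10 (-1.19, SE 0.26) and Rpl30 (-1.18, SE 0.31) were lower. The 7 genes called lower in WT became 1 without activated library 1, 0 without activated library 2, 3 without quiescent library 3 and 4 without quiescent library 4, and the 4 in KO became 2 and 1 without activated library 1 or 2. Of 20 other protein-coding hosts 9 were higher and 4 lower in WT, and 9 and 3 in KO. The lists share genes: Nop56, Nop58 and Dkc1 are also among the snoRNP core proteins, and Ncl and Gnl3 among the ribosome biogenesis genes. The 4 became 1 without either WT activated library, the 9 in KO became 4 without KO activated library 1, and the 3 became 1 without either KO activated library. Of 18 nonsense-mediated decay factors 4 were higher in each genotype, while 3 were lower in WT and 0 in KO. Without WT activated library 1 these factors gave 1 higher and 1 lower, and without library 2 they gave 2 higher and 0 lower. In KO 2 were higher without activated library 2, and 1 was lower without quiescent library 2. Smg9 and Smg5 (both 1.07, SE 0.34 and 0.24) and Rbm8a (0.89, SE 0.24) were higher in WT, and Smg6 (-0.94, SE 0.24), Xrn1 (-0.91, SE 0.26) and Pnrc2 (-0.81, SE 0.24) were lower. Of 10 regulators of translation and TOP RNAs 4 were higher and 2 lower in both, with Eif4ebp1 at 2.05 (SE 0.31), Larp1, which binds TOP RNAs, at 2.00 (SE 0.28), Rptor at 1.42 (SE 0.24), Myc at -1.42 (SE 0.28) and Tsc2 at -1.47 (SE 0.28) in WT. In KO these counts became 2 higher and 0 lower without activated library 1, and 1 lower without activated library 2. No gene of these lists was called between KO and WT in either state.

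**Figure D5:**
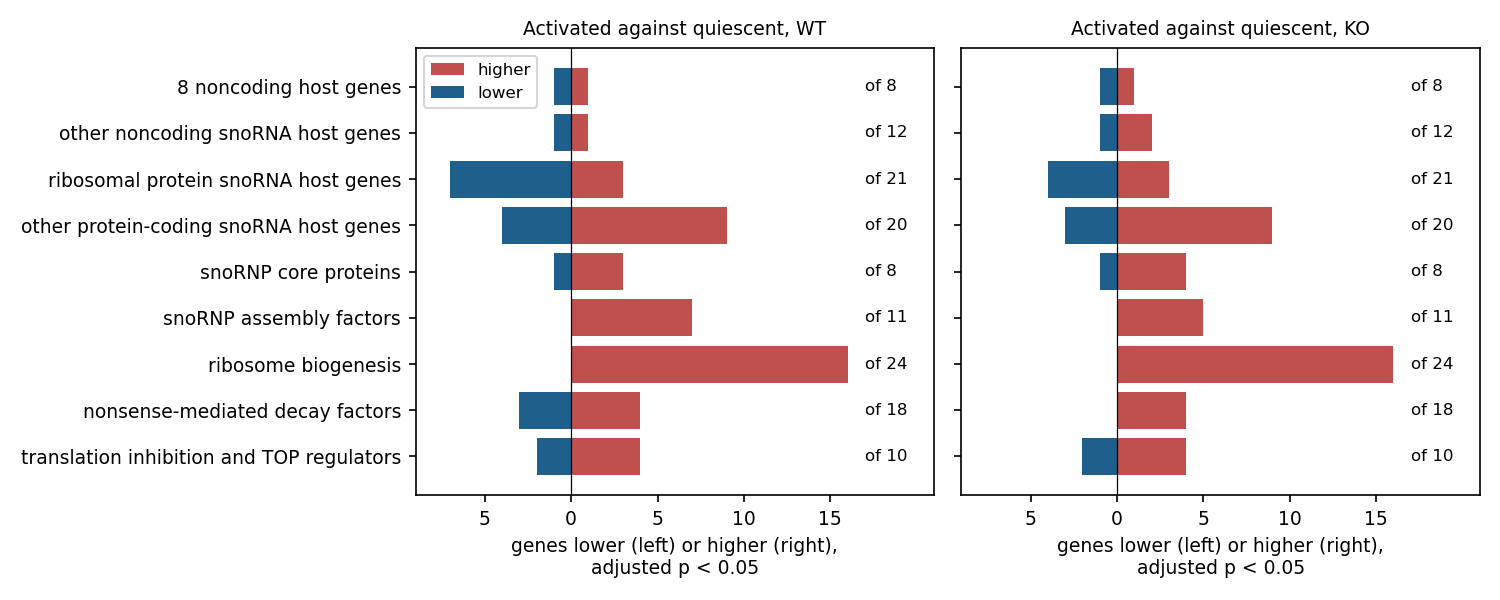
Numbers of genes called higher (right) or lower (left) in activated against quiescent libraries (horizontal axis, adjusted p under 0.05, edgeR) in each gene list, in WT and KO, with the number tested at the right. The 8 host genes have 1 higher and 1 lower in each genotype, while ribosome biogenesis has 16 higher and 0 lower of 24. Of all genes tested, 11.5% were higher and 18.3% lower in WT, and 13.3% and 20.4% in KO. Some genes are in several lists.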

How the data were processed

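Satellite cell RNA was sequenced from polyadenylated RNA in 12 libraries, grouped by their labels. The counts deposited by the authors are raw reads per gene, and per the labels and the paper's methods reads were trimmed with Trim Galore 0.6.0, mapped to GRCm38.p6 (mm10) with STAR 2.7.2a and counted on GENCODE genes with Rsubread. Use of strand and handling of reads shared by genes are not given in the sources used here. The authors also deposited FPKM, 1 value per group, whose gene lengths are not given and which were used only to compare levels between genes.

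Genes were filtered with filterByExpr, leaving 25771, and scaled by TMM, and 1 model with a mean per group was fitted with edgeR 4.0.16 in R 4.3.3. Contrasts were tested by the quasi-likelihood F test with Benjamini-Hochberg adjustment over all genes tested, and a gene was called at an adjusted p under 0.05. SEs were taken from the fold change and F, and intervals are 1.96 SE on each side. Exon lengths, neighbours and snoRNAs came from GENCODE M21, another release than the one the paper's methods name for the counts, in which 55141 of 55401 gene IDs were found, and promoters from RefSeq. The limits that a count of 0 allows cover counting error only. The fit was tested on simulated counts with known changes. A log2 fold change of 1 was recovered in 28.4% of changed genes for KO against WT in quiescent cells and 1.49% in activated cells. Between states it was recovered in 5.97% in WT and 10.4% in KO. A change of 2 was recovered in 98.5%, 42.4%, 81.8% and 87.9%, in that order. Each simulated comparison changed only 67, 67 and 66 genes by 0.5, 1 and 2. In the data 29.8% of all genes were called between states in WT and 33.7% in KO. Adjustment was thus harsher in the simulation, and recovery between states in the data may be higher than these shares.

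The rule for the host genes used names and no measured value, but the set, the gene lists and the tests were chosen with earlier results of these data known. Named genes were the 8 hosts, Cxcr4, snoRNAs with a mean of at least 10 counts inside a host, genes overlapping a host or starting within 1000 bases on the other strand, the 5 genes most alike, and at most the 3 highest and 3 lowest called genes of each list in WT. Alternatives were other scalings, filters and tools, a stricter rule, a replicate block and leaving out each library.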

Additional observations from a re-analysis of the deposited data

Results flagged for a closer look

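In groups of 4 libraries, a value was noted where its gap to the nearest other library took up most of the range of the group by Dixon's criterion at the 95% level, which chance gives in about 1 in 20 groups. Among the 16 quiescent groups of the 8 host genes, 3 such values were found, all in KO. Gas5 stood at 276 CPM in KO quiescent library 4, where the other KO libraries lay at 208 to 209 CPM. Snhg12 stood at 51.9 CPM in KO quiescent library 3, where the others lay at 67.9 to 69.1 CPM. Snhg3 stood at 0.752 CPM, from 11 counts, in KO quiescent library 2, where the others had 0 counts. With the others at 0, any count meets the criterion, so the rate of 1 in 20 does not apply to Snhg3. The cause was not tested.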

How the results depend on the processing

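Calls between KO and WT, and calls of their difference between states, stayed at 0 of 8 host genes under all alternatives. Between states in WT, 2 calls became 1 with library totals, 4 with DESeq2, 0 under the stricter rule, 0 to 2 without 1 library and 0 without both activated libraries numbered 2, an alternative chosen after seeing the data. In KO, 2 calls became 1 with library totals, 1 with the ribosomal RNA gene left out, 0 with no filter, 0 in the fit on the compared groups alone, 0 under the stricter rule, 0 to 2 without 1 library and 0 without both activated libraries numbered 2. A fit with the replicate number as a block gave 2 calls in WT and 1 in KO, where Snhg6 was called (1.17, adjusted p = 0.00326) and Gas5 (-0.49, adjusted p = 0.0863) and Zfas1 (0.59, adjusted p = 0.0854) were not. Deviations of same-numbered libraries correlated at 0.33, 0.16, -0.42 and 0.68 in quiescent cells and at -0.12 in activated cells, where centring 2 libraries fixes the size for both pairs. Not every pair was over 0.1, so no pairing was assumed, although same-numbered quiescent totals differed by 0.701% to 3.93% and both activated libraries numbered 2 had the higher ribosomal RNA share (40.3% and 28.8% against 12.6% and 11.5%). Whether a number marks a shared batch is not given in the sources used here. With the activated numbers crossed, a pairing also tried after seeing the data, the counts were 2 in WT and 1 in KO. Gas5 kept a negative and Zfas1 and Snhg6 a positive log2 fold change between states in both genotypes in every alternative fitted for single genes, and Zfas1 in WT was called under 4 of them. The median log2 fold change of all genes between states in WT ranged from -0.46 with a mean count of at least 10 to -2.73 without activated library 1.

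The signs of genes that were not called changed as follows, in log2 fold changes. With library totals, Snhg12 in the activated KO comparison became 0.034, and between states Snhg1 in WT became -0.082 and Snhg8 in KO -0.050. The difference of the KO effect for Zfas1 became -0.049 with DESeq2 size factors, -0.017 with upper quartile scaling and -0.044 with DESeq2. Snhg15 between states in WT became 0.46 with the block and 0.49 with the crossed block. Without both activated libraries numbered 2, the activated KO comparison gave -0.19 for Zfas1 and 0.24 for Snhg12, the difference gave -0.25 and 0.069 for the same genes, and the states gave -0.064 for Snhg12 in WT, 0.0045 for Snhg12 in KO and -0.061 for Snhg15 in KO.

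Leaving out 1 library gave these ranges. Between KO and WT in quiescent cells they were -0.20 to 0.013 for Gas5, -0.024 to 0.12 for Zfas1, -0.068 to 0.22 for Snhg1, -0.20 to 0.32 for Snhg6 and -0.15 to 0.33 for Snhg15. In activated cells they were -0.33 to 0.36 for Zfas1, -0.57 to 0.092 for Snhg6, -0.073 to 0.22 for Snhg8 and -0.48 to 0.12 for Snhg12. For the difference they were -0.39 to 0.28 for Zfas1, -0.71 to 0.028 for Snhg6 and -0.041 to 0.48 for Snhg15. Between states they were -0.078 to 0.19 for Snhg1, -0.043 to 0.56 for Snhg12 and -0.29 to 0.17 for Snhg15 in WT, and -0.022 to 0.11 for Snhg8, -0.17 to 0.00092 for Snhg12 and -0.059 to 0.38 for Snhg15 in KO. The cause was not tested. Where 1 activated library was left, it was assumed to vary like the other groups. Only 2 libraries per genotype were activated, and 3 counts were worth up to 1.31 CPM there, which limits Snhg3 and the snoRNAs most.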

Other observations

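Among 12 other noncoding snoRNA host genes, 1 was called higher and 1 lower in WT activated libraries, and 2 higher and 1 lower in KO. Of all genes tested, 11.5% were higher and 18.3% lower in WT, and 13.3% and 20.4% in KO, so these counts do not set the class apart. In WT 2 were lower without activated library 1, and in KO 1 was higher without activated library 2 and 2 were lower without quiescent library 2 or 3. Snhg20 stood at 9.14 to 20.1 CPM in WT quiescent and 57.0 and 47.7 CPM in WT activated libraries, and at 10.6 to 19.9 and 55.0 and 83.5 CPM in KO. Its log2 fold change was 1.83 (SE 0.33, adjusted p = 0.000263, edgeR) in WT and 2.30 (SE 0.32, adjusted p = 1.9e-05) in KO. The Snhg20 groups did not overlap in either genotype, as for 56.0% of all genes in WT and 54.4% in KO. Snhg11 had 51 to 134 counts in the quiescent libraries and 3, 0, 2 and 0 counts in the activated ones, which are at or under 3 counts a library, and it was called lower in both genotypes.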
